A study of Mus musculus with 4 samples.

Results

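The genes examined here are the 10 that encode the muscle side of the neuromuscular junction: the acetylcholine receptor subunits Chrna1, Chrnb1, Chrnd, Chrne and Chrng, the clustering genes Lrp4, Musk, Dok7 and Rapsn, and Colq, which anchors acetylcholinesterase. They were chosen by name, as every non-control probe whose accession belongs to one of these genes in the RefSeq table, which gave 12 probes of 39429 on the array and 10 genes of 20971 that could be named. Chrna1 and Colq had 2 probes each. RNA came from ears of male BALB/c mice aged 6 to 10 weeks. The DEP group inhaled diesel exhaust particles, 1 h a day over 5 days, with tissue collected on day 14; the label of the control ears gives no further detail. The tissue taken was the temporal bone area with the middle ear, so a sample held muscle, nerve, bone and mucosa together. Each of 4 two-colour arrays set 1 DEP ear extract, in Cy5, against 1 control ear extract, in Cy3. The 4 arrays are labelled as biological replicates, but nothing says how many of the 9 mice went into an extract, so the p-values measure the spread between these arrays.

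Skeletal muscle fibres receive acetylcholine through a pentameric channel made of alpha, beta, delta and either gamma or epsilon subunits, the gamma subunit being typical of embryonic and denervated muscle and the epsilon subunit of adult muscle. Agrin released by the motor nerve binds Lrp4, Lrp4 activates the kinase Musk, Dok7 binds Musk inside the fibre, and rapsyn, the product of Rapsn, packs the receptors into clusters below the nerve ending. The temporal bone holds muscles of this kind, among them the tensor tympani and the stapedius.

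Transcription of these genes in muscle is known to run through E-boxes, bound by the MyoD family, and in some of them through an N-box, bound by Ets factors. The 250 bases before the start of 4 of the genes are shown because each holds the E-box CAGCTG. Windows were found in RefSeq (GRCm38.p6) for 6 of the 10 genes, namely these 4, Chrnb1 and Dok7. Sequences run 5′ to 3′ on the strand of the gene, and capitals mark CAGCTG, which reads the same on both strands, and in Chrne also the N-box CCGGAA. Chrna1 lies at chr2:73580339-73580588 on the minus strand, Chrng at chr1:87205561-87205810 on the plus strand, Chrne at chr11:70619195-70619444 on the minus strand and Musk at chr4:58285712-58285961 on the plus strand.
Chrna1: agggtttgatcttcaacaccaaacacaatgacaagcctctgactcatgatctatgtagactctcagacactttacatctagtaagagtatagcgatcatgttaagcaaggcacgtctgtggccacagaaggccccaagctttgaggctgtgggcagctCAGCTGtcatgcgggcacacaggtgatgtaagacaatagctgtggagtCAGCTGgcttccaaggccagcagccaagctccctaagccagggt
Chrng: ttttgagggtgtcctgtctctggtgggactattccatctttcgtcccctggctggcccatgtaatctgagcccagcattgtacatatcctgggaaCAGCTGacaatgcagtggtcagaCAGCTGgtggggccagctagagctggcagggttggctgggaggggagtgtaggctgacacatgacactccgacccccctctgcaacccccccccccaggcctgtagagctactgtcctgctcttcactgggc
Chrne: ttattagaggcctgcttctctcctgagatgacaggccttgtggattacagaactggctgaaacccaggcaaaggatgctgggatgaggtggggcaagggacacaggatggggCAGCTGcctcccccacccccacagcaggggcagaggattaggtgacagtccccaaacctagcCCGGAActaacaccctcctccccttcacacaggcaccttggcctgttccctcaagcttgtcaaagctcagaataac
Musk: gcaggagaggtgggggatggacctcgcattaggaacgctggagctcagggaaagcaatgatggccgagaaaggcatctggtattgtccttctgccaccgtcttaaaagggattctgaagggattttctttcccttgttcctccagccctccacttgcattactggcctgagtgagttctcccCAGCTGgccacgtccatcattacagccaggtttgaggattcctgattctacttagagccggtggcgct
CAGCTG began 92 and 44 bases before the start of Chrna1, 155 and 132 bases before that of Chrng, 138 bases before that of Chrne and 68 bases before that of Musk. It was found in 4 of 6 junction genes with a window and in 13.0% of all 32851 RefSeq windows of 250 bases. The looser form CANNTG, which contains CAGCTG, was found in 6 of 6 junction genes and in 66.22% of all windows. A junction gene was counted if any of its windows held the motif, and Dok7 had a window with CANNTG and a window without it. The N-box CCGGAA, searched on both strands, was found in Chrne alone of the 6, beginning 76 bases before the start, and in 12.03% of all windows. These are matches of letters and not measured binding sites.

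Each array gave a log2 ratio of DEP over control for a probe. The direction of every ratio follows the source names in the labels, which put the DEP ear in Cy5 and the control ear in Cy3; the treatment entries of the same labels list both treatments under Cy5. Read this way, the ratios run opposite to the directions that the study gives. The study reports those directions from its arrays and, for some of the genes, also from quantitative PCR. Of 25 tested genes on its list of genes raised by DEP, 24 had a mean ratio below 0 here, and of 11 tested genes on its list of lowered genes, 9 had a mean ratio above 0. All signs below would turn if the dyes were the other way round, and Colq would then have the highest mean ratio of the 10. No array had the dyes swapped, so a preference of a probe for one dye and an effect of exposure cannot be told apart. Likewise, in a whole-tissue extract, fewer cells of a type and less RNA per cell cannot be told apart. All arrays shared 1 slide and 1 scan, so no batch could be tested. The ratios of arrays 1 and 4 correlated at -0.22 across genes and those of arrays 1 and 2 at 0.61.

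No junction gene differed between DEP and control ears after adjustment over all genes. Among the members measured in full, Musk had the highest mean ratio, Colq the lowest, and Chrnd and Rapsn had means near 0; Chrne was above 0 on every array, but its control spots were not well above background. The test was limma's moderated test of the mean log2 ratio of DEP over control against 0, with Benjamini-Hochberg adjustment over 31577 probes. None of the 10 genes passed an adjusted p of 0.05, and 0.0% of the 25694 genes tested did so (probes with no name in RefSeq are counted among these by their own accession or identifier), which also holds for every gene outside the junction. At an unadjusted p under 0.05 stood 2 of the 10, Chrne and Musk, against 18.7% of all genes, and 3 of the 10, these with Lrp4, had the same sign on all arrays, against 27.1% of all genes. None of the 10 was past 2-fold, against 6.75% of all genes. The mean ratio was above 0 for 5 genes and below 0 for 5, and the median over the 10 was 0.01 on the log2 scale, against 0.03 over all genes tested.

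The alpha subunit gene Chrna1, which encodes the part of the receptor that carries the binding sites for acetylcholine, gave processed signals (background-subtracted intensities) of 229, 298, 219 and 187 in the DEP ears of arrays 1 to 4 and of 218, 131, 169 and 267 in the control ears. The channels overlapped, and array 2 held both the highest DEP signal and the lowest control signal. The log2 ratios were 0.07, 1.19, 0.38 and -0.51, with a mean of 0.28 ± 0.71 (SD, n = 4) and an adjusted p of 0.621 in limma. The second probe of Chrna1, A_55_P2130987, had log2 ratios of 0.26, 1.45, 1.55 and 0.0060 and was well above background in no control ear and in 3 DEP ears. These ratios rest on control spots at background and are not set against those of the first probe. Chrnb1, the beta subunit gene, gave 129, 103, 113 and 82.3 in the DEP ears and 140, 81.1, 71.2 and 88.2 in the control ears. Its DEP signal exceeded the control signal on arrays 2 and 3 only, and the mean log2 ratio was 0.20 ± 0.38 (SD, n = 4; limma adjusted p = 0.572). With normexp background correction the mean ratio of Chrnb1 was 0.087 after loess and 0.10 after median centring. For Chrnd, the delta subunit gene, the DEP signals were 106, 183, 181 and 138 and the control signals 154, 95.7, 194 and 178. Only array 2 had the DEP ear above the control ear, and the mean log2 ratio of -0.02 ± 0.66 (SD, n = 4) had an adjusted p of 0.975 in limma.

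**Figure D1:**
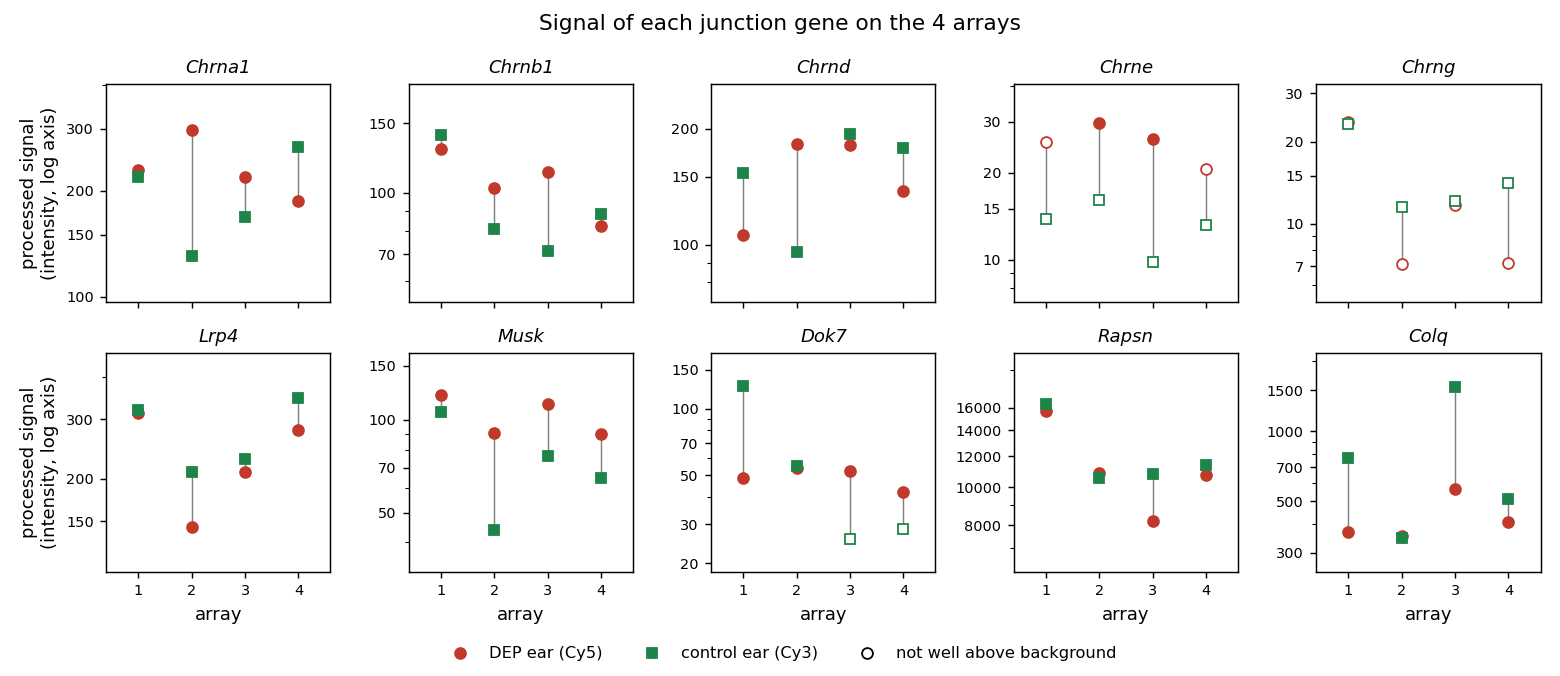
Processed signal of the brightest probe of each of the 10 genes on arrays 1 to 4 (log axis, range set per gene), with circles for DEP ears, squares for control ears, open symbols where the spot was not well above background and a grey line joining both channels of an array. The channels are apart for Chrne alone, whose 4 control spots and 2 of 4 DEP spots are open, and Chrng is open throughout.

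The adult subunit gene Chrne and the embryonic subunit gene Chrng were near the limit of detection. Chrne gave 25.6, 29.6, 26.1 and 20.5 in the DEP ears and 13.8, 16.1, 9.79 and 13.2 in the control ears. It was the 1 junction gene of 10 whose channels did not overlap, against 3.88% of all genes. The log2 ratios of 0.89, 0.88, 1.41 and 0.64 had a mean of 0.96 ± 0.33 (SD, n = 4), with an unadjusted p of 0.00191 and an adjusted p of 0.112 in limma. The control spot was well above background on 0 of 4 arrays and the DEP spot on arrays 2 and 3, so no fold is given. On the 4 arrays the dimmest spots well above background had signals of 16.0 to 31.1 in the DEP channel, and of 20.8 to 36.5 in the control channel. All 4 DEP signals of Chrne lay within the first of these ranges and all 4 control signals under the second. Among the 2205 genes within 0.5 of the mean log2 signal of Chrne, 21.0% had an unadjusted p under 0.05 with a ratio above 0. With normexp background correction the mean ratio of Chrne was 0.17, and with median centring in place of loess after it -0.01. Chrng gave 23.6, 7.14, 11.8 and 7.17 in the DEP ears and 23.1, 11.5, 12.1 and 14.1 in the control ears. No Chrng spot was well above background in either channel of any array, so that neither a fold nor a shift between the embryonic and the adult subunit is given. Chrng and Chrnd are neighbours on chromosome 1 in RefSeq, and of this pair the probe of Chrnd was well above background in all 8 channels.

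Of the clustering genes, the kinase gene Musk had the only ratio above 0 on 4 of 4 arrays among the members measured in full, meaning well above background in both channels of all arrays. Musk gave 121, 90.8, 113 and 89.8 in the DEP ears and 106, 43.9, 76.1 and 64.6 in the control ears. Each DEP signal exceeded the control signal of its own array, although the highest control signal exceeded the DEP signals of arrays 2 and 4. The log2 ratios of 0.18, 1.05, 0.57 and 0.47 had a mean of 0.57 ± 0.36 (SD, n = 4), or 1.48-fold, with an unadjusted p of 0.0209 and an adjusted p of 0.207 in limma. The unadjusted p was 0.0728 after normexp and loess, 0.0883 when median centring replaced the loess, 0.0513 without moderation, 0.0642 without array 2 and 0.0659 without array 3. Of all 18349 genes measured in full, 6.55% had an unadjusted p under 0.05 with a ratio above 0, against 1 of the 7 junction genes measured in full. Among the 2237 genes of like signal to Musk the share was 10.8%. The mean ratio was 0.19 both with normexp and loess and with normexp and median centring.

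Lrp4, the receptor for agrin, had the opposite sign on every array. Its signals were 312, 145, 210 and 279 in the DEP ears and 319, 210, 228 and 347 in the control ears. The differences within arrays were small beside the spread between arrays, and the channels overlapped. The log2 ratios of -0.03, -0.54, -0.12 and -0.31 had a mean of -0.25 ± 0.23 (SD, n = 4) with an adjusted p of 0.360 in limma, and median centring after normexp brought the mean to -0.08. Dok7, the adaptor that Musk binds, gave 48.6, 54.2, 52.5 and 42.0 in the DEP ears and 127, 54.9, 25.8 and 28.7 in the control ears. The DEP signals lay close together, and the control signal of array 1 was far above the rest. The control spot was well above background on arrays 1 and 2 only. The log2 ratios ran from -1.38 on array 1 to 1.02 on array 3, with a mean of 0.04 ± 1.04 (SD, n = 4; limma adjusted p = 0.962). Rapsn, the scaffold gene, gave 15681, 10856, 8195 and 10785 in the DEP ears and 16382, 10587, 10824 and 11411 in the control ears. Both channels of array 1 were high, so that the ratio there was near 0. The log2 ratios of -0.06, 0.04, -0.40 and -0.08 had a mean of -0.13 ± 0.19 (SD, n = 4) and an adjusted p of 0.594 in limma, the narrowest spread of the 7 genes measured in full. With normexp and median centring the mean ratio of Rapsn was 0.35, which turns its direction.

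Colq encodes the collagen tail that holds acetylcholinesterase in the basal lamina of the synaptic cleft. It gave 369, 354, 565 and 408 in the DEP ears and 765, 349, 1551 and 510 in the control ears. The DEP ear was lower on arrays 1, 3 and 4, most of all on array 3, and level with the control ear on array 2. The log2 ratios of -1.05, 0.02, -1.46 and -0.32 had a mean of -0.70 ± 0.67 (SD, n = 4), or 1.63-fold lower, with an unadjusted p of 0.0532 and an adjusted p of 0.276 in limma. It was -0.61 with normexp and loess and -0.38 with normexp and median centring. The second probe of Colq, A_55_P2068784, had log2 ratios of -1.11, 0.16, -0.67 and 0.09 and was well above background in 0 control ears and 1 DEP ear. The enzyme that Colq holds, encoded by Ache, was listed with the other junction genes and is described here beside it. Ache gave 239, 276, 322 and 238 in the DEP ears and 671, 454, 647 and 318 in the control ears. It was lower in the DEP ear on 4 of 4 arrays, and only the control signal of array 4 came within the range of the DEP signals. Its log2 ratios of -1.49, -0.72, -1.01 and -0.42 had a mean of -0.91 ± 0.46 (SD, n = 4), with an unadjusted p of 0.00650 and an adjusted p of 0.154 in limma. The mean stayed below 0 with normexp and loess, at -0.78, and with normexp and median centring, at -0.58.

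**Figure D2:**
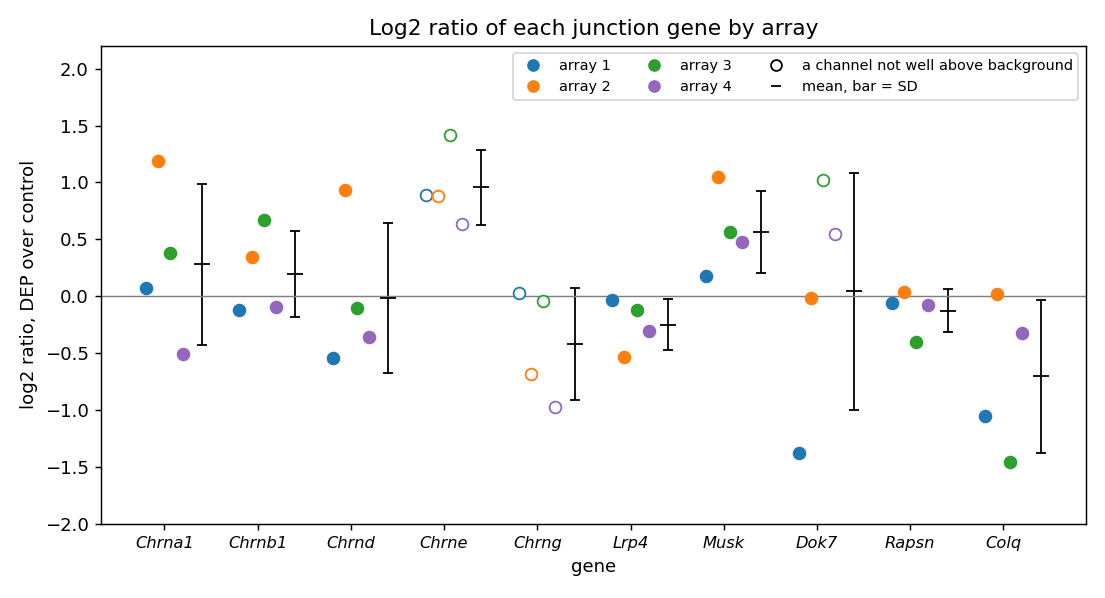
Log2 ratio of DEP over control (y axis) for the brightest probe of each of the 10 genes (x axis), 1 point per array with the mean and SD of 4 arrays, open where a channel was not well above background. Musk and Chrne lie above 0 and Lrp4 below 0 on 4 of 4 arrays, and the other 7 genes have arrays on both sides of 0.

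The junction genes did not share one order of arrays. For Chrna1, Chrnd, Musk, Rapsn and Colq, 5 of the 7 members measured in full, array 2 had the highest ratio, against 22.4% of all genes measured in full. The medians of the 10 genes were -0.05, 0.19, 0.17 and -0.21 on arrays 1 to 4. Genes of muscle contraction differed between the extracts of an array in another order. The median ratio of 38 genes of the contractile apparatus and of calcium handling was -0.82, -0.24, 0.67 and 0.63 on arrays 1 to 4, with 37 of 38 below 0 on array 1 and 35 of 38 above 0 on arrays 3 and 4 each. Their summed signal ranged from 727443 to 1248030 in DEP ears and from 618136 to 2097600 in control ears. The 4 brightest of them by mean log2 signal, the measure of brightness used for all lists, were the troponin genes Tnni2 and Tnnc2, the myosin gene Myh4 and the actin gene Acta1, with mean log2 ratios of 0.18 ± 0.77, 0.35 ± 0.79, -0.21 ± 0.76 and 0.34 ± 0.98 (SD, n = 4). At an unadjusted p under 0.05 in limma stood 2 of the 38, against 18.7% of all genes, namely Cacng1, with a mean of 0.61, and Neb, with a mean of -0.54, both named after their values were seen.

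Each member was also set against the median of the contractile genes on its own array, for the 8 members with some array well above background in both channels. The difference was 0.51 ± 0.74 (SD, n = 4) for Musk, with 1.00 and 1.28 on arrays 1 and 2 and -0.11 and -0.15 on arrays 3 and 4, and an exact two-sided sign-flip permutation test gave p = 0.5. For Colq it was -0.76 ± 1.04 (n = 4; exact p = 0.375), for Lrp4 -0.31 ± 0.78 (n = 4; exact p = 0.375) and for Chrna1 0.22 ± 1.16 (n = 4; exact p = 0.875). The others lay between -0.19 and 0.13. All 8 adjusted p were 1, and 4 arrays cannot give an exact p below 0.125. The contractile medians nearly cancel over the 4 arrays, so the subtraction could move no mean by much and says nothing of the part of muscle content.

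**Figure D3:**
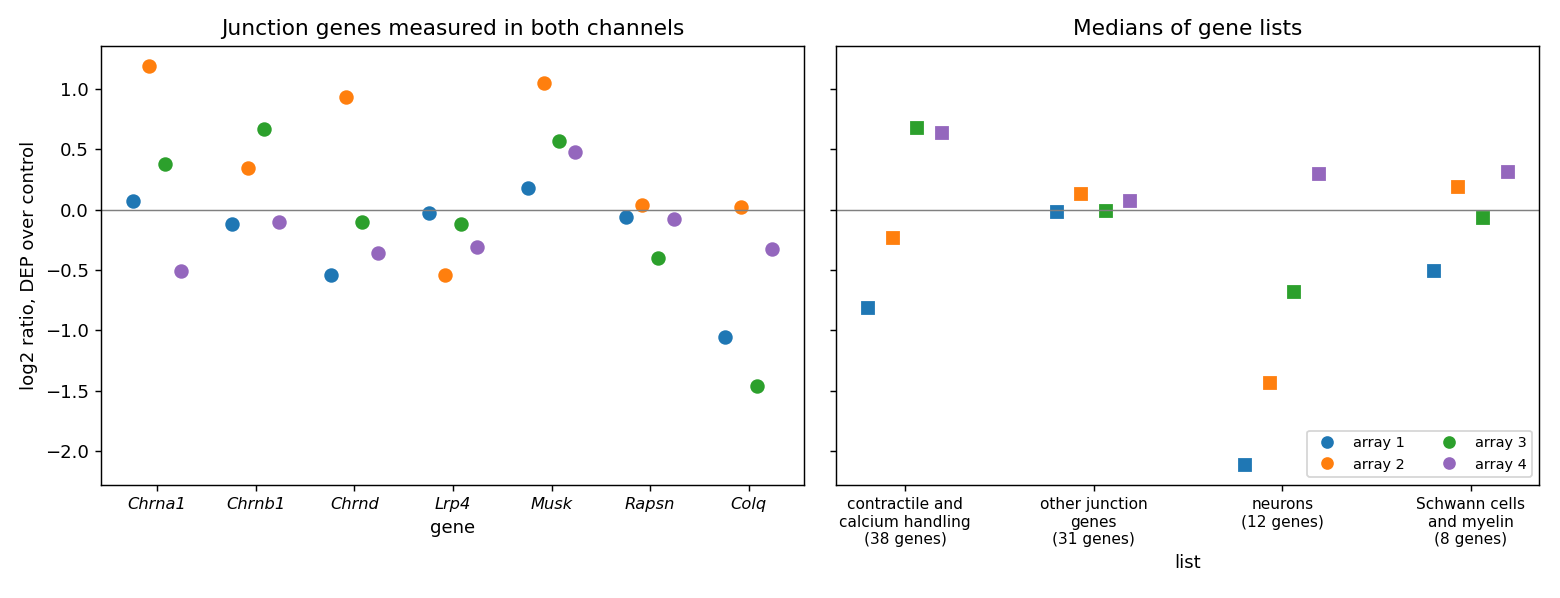
Log2 ratio of DEP over control on arrays 1 to 4 (colours) for the 7 junction genes measured in full (left, circles) and the median of 4 gene lists (right, squares, number of genes tested under each). Contractile genes are below 0 on arrays 1 and 2 and above 0 on arrays 3 and 4, and neuronal genes are lowest on array 1, whereas Chrna1, Chrnd and Musk are highest on array 2.

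The other junction genes, a list of 32 of which 31 were tested, had medians close to 0 on every array. They were -0.02, 0.13, -0.01 and 0.07 on arrays 1 to 4, and 16 mean ratios were above 0 and 15 below. Among the brightest were the phosphatase gene Ptpn11, Agrn, which encodes agrin, and the chaperone gene Dnaja3, with mean log2 ratios of -0.0090, 0.22 and 0.14. Agrn gave 13060, 6761, 6808 and 5524 in the DEP ears and 7368, 5633, 6811 and 6456 in the control ears, so the channels differed most on array 1. Its mean ratio was 0.47 over all its probes, 0.69 with normexp and median centring and 0.013 without array 1. Of the 31, 5 had an unadjusted p under 0.05, against 18.7% of all genes. Gabpa and Abl1 had a ratio above 0, at 0.34 and 0.45, and Dmd, Macf1 and Ache one below 0, at -0.49, -0.42 and -0.91. Gabpa encodes an Ets factor that binds N-boxes, and Dmd encodes dystrophin; these 2 with Abl1 and Macf1 were named after their values were seen.

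The list of the denervation response holds genes known to be raised in muscle that loses its nerve and others, such as Hdac9 and Dach2, known to be lowered, so its count has no single direction to be read against. Of 12, 6 had a mean ratio above 0 and 6 below, with a median of -0.04. The 4 brightest, Sln, Ncam1, Trim63 and Gadd45a, had means of 0.58, -0.39, 0.05 and -0.14. That of Ncam1 was -0.081 with normexp and median centring. The 1 gene of the 12 at an unadjusted p under 0.05, against 18.7% of all genes, was Myog, a factor of the MyoD family, which gave 69.5, 39.3, 51.5 and 43.6 in the DEP ears and 41.1, 13.1, 17.5 and 18.4 in the control ears. Its DEP spot was well above background on 4 arrays and its control spot on 1, and the mean log2 ratio of 1.34 ± 0.41 (SD, n = 4; limma adjusted p = 0.107) was 0.32 with normexp and loess. Of 10 tested genes of myogenic precursors and developing muscle, 7 had a mean ratio above 0 and 3 below, with a median of 0.19. At an unadjusted p under 0.05 were 4 of the 10, Myod1, Pax7, Myh3 and Mymk, against 18.7% of all genes. Their mean log2 ratios were 1.11, 0.86, 0.50 and 0.32, and they were named after their values were seen. Pax7 was near background in both channels, with the control spot well above it on 0 arrays and the DEP spot on 1, and the control spot of Myod1 was well above it on 2. The 4 brightest of that list were Myh8, Des, Actc1 and Myf6, with means of -0.19, 0.11, 0.25 and 0.13.

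Nicotinic receptor subunits of neurons and hair cells gave no common direction, with 4 of 9 tested genes above 0 and 5 below. The 4 brightest, Chrna2, Chrna10, Chrnb2 and Chrnb4, had mean log2 ratios of 0.26, 0.09, -1.56 and -0.67. Chrnb2 gave 532, 444, 141 and 48.8 in the control ears against 66.4 to 73.2 in the DEP ears, so the control channel alone varied. Chrna9, which with Chrna10 forms the efferent receptor of hair cells, was well above background in 4 of 4 DEP ears and in 0 of 4 control ears. After normexp with loess and Aquantile scaling, on which the bound was computed, it was at least 1.18-fold higher in the DEP ears, with an adjusted p of 0.187 in the limma fit of the deposited ratios. The bound holds for that scaling only, since the mean log2 ratio of Chrna9 was 1.01 in the deposited ratios, 0.27 with normexp and loess and 0.11, under the bound, with normexp and median centring. The bound sets the mean DEP signal against the detection limit or the control signal of each array, whichever was higher. Bounds were computed only for listed genes detected in every ear of a group and in no ear of the other, so this bound is no separate support for a difference.

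Neuronal genes had lower signals in the DEP ears on arrays 1 to 3, 12 of 12 genes on each. All 12 neuronal genes had a mean ratio below 0, 6 of them at an unadjusted p under 0.05 against 18.7% of all genes, and the list medians were -2.11, -1.43, -0.68 and 0.29 on arrays 1 to 4. Its 4 brightest, Snap25, Nefh, Nefl and Stmn2, had means of -0.67, -0.41, -0.70 and -1.47. That of Nefl was -0.29 with normexp and median centring, and that of Snap25 was at most -0.16 across all settings. The summed signal of the neuronal genes ranged from 29096 to 47980 in DEP ears and from 35154 to 111881 in control ears. Of 5 tested genes of motor and cholinergic neurons, 1 had a mean ratio above 0 and 4 below. Prph, Isl1, Slc18a3 and Slc5a7 were the brightest, with means of -1.30, -0.32, 0.00066 and -1.06. That of Prph was -0.70 without array 1, and that of Isl1 was -0.098 without array 3. That of Slc5a7, not well above background in 2 of 4 DEP ears, was -0.31 without array 1 and -0.18 with normexp and loess. Chat, the enzyme that makes acetylcholine, was well above background in 0 DEP ears and 1 control ear. For Schwann cells and myelin, 3 of 8 genes were above 0 and 5 below, and S100b, Pmp22 and Prx had means of -0.25, -0.12 and 0.12. The part of the muscle and nerve content of the extracts in the ratios of the junction genes was not tested.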

How the data were processed

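Two-colour 4x44K arrays compared DEP with control ear RNA on 4 arrays. The authors quantified them with Feature Extraction 10.10.1.1. The deposited processed intensity is background-subtracted and dye-normalized within the array, and the deposited log10 ratio is Cy5 over Cy3, 0 where none was given. Here that ratio was put on the log2 scale. Control spots, outlier-flagged spots (164 to 274 per array) and spots without a ratio (6179 to 8558 of 43020) were left out, and spots of a probe averaged. Accessions were named through RefSeq (GRCm38.p6; 27655 of 39429 probes), since the files carry no gene names. The files' own build is not that of RefSeq, so coordinates are given for promoter windows only. Probes with at least 3 ratios were fitted with lmFit and eBayes in limma 3.58.1 (R 4.3.3), checked first on simulated data. The share of probes well above background was 65.4% to 68.9% in Cy5 and 59.2% to 68.0% in Cy3. The number of arrays limits the precision.

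The members and lists were chosen with earlier results of these data known. A gene was represented by the probe of highest mean signal. Named were all members, the 4 brightest genes of each list, Agrn, Chat, Ache, Myog, Chrna9, Chrna10, and the 5 genes outside the lists that followed the members most closely. Some genes that this rule names are not reported here. Alternatives were normexp (offset 50) with loess or with median centring, which used median spot signals as the files hold no mean ones, the authors' series table of the same log10 ratios, flagged spots kept, detection filters, an intensity trend, averaging over all probes of a gene, no moderation and leaving out each array. There were 0 columns without a sample. Python 3.11.15, pandas 2.3.3, numpy 2.4.6, scipy 1.17.1 and matplotlib 3.10.9 were used.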

Additional observations from a re-analysis of the deposited data

Results flagged for a closer look

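In 5 of 75 groups of 4 values tested, 1 array stood apart from the other three by Dixon's criterion, where chance gives about 1 in 20 and so 3.75. The control signal of Rapsn was 16382 on array 1 and 10587 to 11411 on the others. On the same array the log2 ratio of Gadd45a was -0.68 against -0.01 to 0.10, that of Prx was -0.35 against 0.25 to 0.34, and that of S100b was -1.45 against 0.04 to 0.28. The median log2 ratio of the denervation genes was 0.25 on array 3 and -0.10 to -0.04 on the others.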

How the results depend on the processing

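No gene passed an adjusted p of 0.05 in limma, while 4799 had an unadjusted p under 0.05. With normexp and median centring 2988 genes passed after adjustment and 9535 had an unadjusted p under 0.05, and the median of all genes was 0.12 there against 0.03 in the deposited ratios. Of the 10 members and the genes named by the rule on the lists, Dnaja3 (0.53, adjusted p = 0.0346) and Tnni2 (1.28, adjusted p = 0.0496) passed in that limma fit, and no member did. With genes well above background in both channels only, 2840 had an unadjusted p under 0.05, and leaving out 1 array gave 2935 (without array 2) to 5006. The member median of 0.01 ranged from -0.088 (without array 2) to 0.23 (without array 1) on leaving out 1 array. The contractile median of 0.06 was 0.59 with normexp and median centring and ranged from -0.15 to 0.36 on leaving out 1 array, and the median over 8 members of their differences from the contractile median of each array went from -0.05 to -0.52 with normexp and median centring, and to 0.13 without array 3 and 0.11 without array 4. Normexp with median centring gave the other sign, turning Chrnd to 0.040, Chrne to -0.014, Rapsn to 0.35, Dok7 to -0.21, Gadd45a to 0.17, Myh4 to 0.73, Myh8 to 0.87, Nefh to 0.032, Pmp22 to 0.56, Ptpn11 to 0.49 and S100b to 0.44. Normexp with loess also gave the other sign, turning Dok7 to -0.10, Myh8 to 0.018, Pmp22 to 0.028, Slc18a3 to -0.0047 and Trim63 to -0.013. Leaving out 1 array let Chrna1 range from -0.022 to 0.55, Chrnd from -0.33 to 0.16, Dok7 from -0.28 to 0.52, Chrna10 from -0.058 to 0.31, Des from -0.049 to 0.28, Gadd45a from -0.21 to 0.045, Myh4 from -0.51 to 0.051, Pmp22 from -0.29 to 0.029, Ptpn11 from -0.088 to 0.11, S100b from -0.42 to 0.15, Slc18a3 from -0.17 to 0.13, Tnni2 from -0.045 to 0.45 and Trim63 from -0.17 to 0.24. Among genes that kept their sign, the range was 0.039 to 0.30 for Chrnb1, -0.18 to -0.036 for Rapsn, -0.94 to -0.45 for Colq, -0.32 to -0.15 for Lrp4, 0.013 to 0.36 for Agrn, 0.029 to 0.63 for Acta1, 0.095 to 0.62 for Tnnc2, -0.70 to -0.15 for Ncam1, -0.77 to -0.055 for Nefh, -1.33 to -0.15 for Nefl, -0.91 to -0.27 for Chrnb4, 0.12 to 0.50 for Actc1, 0.019 to 0.32 for Myf6, -0.38 to -0.039 for Myh8, 0.052 to 0.28 for Prx, 0.38 to 0.95 for Sln, 0.092 to 0.19 for Dnaja3, -1.78 to -0.70 for Prph, -0.53 to -0.098 for Isl1 and -1.41 to -0.31 for Slc5a7. The cause of these shifts was not tested. Chrng minus Chrne was not run, because no Chrng spot was well above background. No paired analysis was possible because the labels pair nothing beyond both extracts of an array, and that pairing is already in the test of a ratio against 0. Low signal over background limits Chrne, Chrng, Dok7 and the second probes of Chrna1 and Colq.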

Other observations

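The junction genes measured in full were compared in pairs over the 8 signals of 4 arrays and 2 channels. The log2 signals of each channel of each array were first set against their median over all probes measured in full. Each gene's values were then centred on their mean. Pairs were compared by Pearson's r over these 8 points, which share arrays and labelling, so r is given as a description. The highest r was that of Chrna1 with Chrnd, at 0.77, followed by Chrnb1 with Musk at 0.71, Chrnd with Colq at 0.69 and Rapsn with Lrp4 at 0.64. The lowest was that of Chrnb1 with Rapsn, at -0.36, followed by Chrnb1 with Colq at -0.08 and Musk with Rapsn at -0.06. No r was computed for pairs of other genes, so a shared movement of the junction genes was not tested. Rapsn, the scaffold of the receptor, had r of 0.14 with Chrna1 and 0.13 with Chrnd.

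The mean centred profile of the 7 genes measured in full was lowest in the control ear of array 2, at -0.52, and highest in the control ear of array 3, at 0.33, where Colq alone stood at 1.76 and the other 6 genes between -0.25 and 0.59. Of 14171 named genes outside the lists that were measured in full, those most like this profile, Colq included, were Baz2b (r = 0.985), Shroom1 (r = 0.976), Card6 (r = 0.965), Gpr20 (r = 0.964) and Mirt1 (r = 0.961), each over the same 8 signals. Their mean log2 ratios of DEP over control lay between -0.13 and 0.14.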
